A study of Arabidopsis thaliana with 12 samples.

Results

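Intron sites of SOB3-GFP are places where the protein was found on chromatin inside the introns of protein-coding genes, away from gene starts and ends. Peaks of 9 lists on chromosomes 1 to 5 were joined into sites if they shared 1 bp or more. A merged site was kept when its centre lay in an intron of a protein-coding gene and in no exon, not from 1000 bp upstream to 100 bp downstream of any protein-coding transcription start site (TSS), and not from 100 bp before to 1000 bp after any transcript end. This gave 1086 of 28285 sites, or 3.84%, in 947 host genes. For comparison, 16720 sites were promoter-TSS sites, 5171 lay at transcript ends, 1190 in exons and 3958 between genes.

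SOB3 (SUPPRESSOR OF PHYTOCHROME B-4 #3) binding was mapped by chromatin immunoprecipitation and sequencing (ChIP-seq) in whole seedlings of Arabidopsis thaliana, ecotype Columbia (Col-0), to follow its binding at different times of a short day. All samples carried the ProSOB3::SOB3-GFP transgene, in which SOB3's own promoter drives the fusion, in the sob3-4 mutant, and were grown at 22 °C in 8 h light and 16 h dark. Seedlings were harvested at 5 days for ZT4 (4 h after lights on) and ZT9, and at 6 days for ZT24, the next dawn, for which the harvest-time label of the samples reads ZT0. Each time point had 3 ChIP replicates, precipitated with an antibody to GFP, and 1 input of sheared chromatin, and each ChIP replicate had 1 peak list. Whole seedlings mix many cell types, so binding in few cells and weak binding in many cannot be told apart, and plants without GFP were not analysed here.

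SOB3 belongs to the AT-hook motif nuclear-localized (AHL) proteins, whose AT-hooks contact the minor groove of AT-rich DNA. Plant introns are themselves rich in A and T, and introns near the start of a gene can hold regulatory DNA that raises or restricts transcription. TCP proteins and PHYTOCHROME INTERACTING FACTORs (PIFs) are growth-related transcription factors with short recognition sequences, the PIF one including the G-box.

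The DNA under 10 intron sites is shown first: 3 of the strongest sites, 3 of the sites that differed most between time points, and 4 in hormone, light and developmental genes that the results return to. Each line is the plus strand of TAIR10, read 5′ to 3′ from the RefSeq TAIR10.1 sequence, for the 300 bp around the strongest summit. Capitals mark matches, on either strand and with overlaps allowed, to a TCP-like motif (GGACCA or GGCCCA or GGTCCA), a PIF-like motif (CACACG or CACATG or CACGCG or CACGTG) or an AT-rich motif (AAATAAAA or AAATAATA or ATATAAAA or ATATAATA).
SFP1 intron 2, chr5:9650022-9650321: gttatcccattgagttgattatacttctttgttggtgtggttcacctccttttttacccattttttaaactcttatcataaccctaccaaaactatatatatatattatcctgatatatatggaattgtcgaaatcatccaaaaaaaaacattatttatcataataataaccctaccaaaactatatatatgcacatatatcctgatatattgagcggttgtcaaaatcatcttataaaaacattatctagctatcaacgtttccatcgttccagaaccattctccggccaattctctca
NRT1.1 intron 4, chr1:4106949-4107248: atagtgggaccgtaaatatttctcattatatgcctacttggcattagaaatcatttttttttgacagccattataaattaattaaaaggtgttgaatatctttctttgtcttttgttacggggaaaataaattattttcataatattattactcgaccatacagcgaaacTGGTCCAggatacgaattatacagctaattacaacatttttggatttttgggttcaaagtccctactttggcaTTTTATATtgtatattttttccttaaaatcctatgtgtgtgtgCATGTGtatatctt
sks4 intron 2, chr4:11664380-11664679: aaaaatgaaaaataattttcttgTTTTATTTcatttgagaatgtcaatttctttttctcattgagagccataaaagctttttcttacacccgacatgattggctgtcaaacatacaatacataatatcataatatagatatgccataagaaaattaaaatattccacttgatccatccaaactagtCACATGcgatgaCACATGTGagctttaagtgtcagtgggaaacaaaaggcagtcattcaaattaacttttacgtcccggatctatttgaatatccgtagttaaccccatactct
ERD5 intron 2, chr3:12450214-12450513: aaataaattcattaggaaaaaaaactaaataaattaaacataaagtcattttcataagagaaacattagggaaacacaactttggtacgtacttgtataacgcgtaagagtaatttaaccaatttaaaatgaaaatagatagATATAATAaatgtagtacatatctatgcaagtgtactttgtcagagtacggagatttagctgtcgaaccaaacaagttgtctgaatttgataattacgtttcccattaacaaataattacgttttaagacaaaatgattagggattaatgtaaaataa
STP1 intron 2, chr1:3778519-3778818: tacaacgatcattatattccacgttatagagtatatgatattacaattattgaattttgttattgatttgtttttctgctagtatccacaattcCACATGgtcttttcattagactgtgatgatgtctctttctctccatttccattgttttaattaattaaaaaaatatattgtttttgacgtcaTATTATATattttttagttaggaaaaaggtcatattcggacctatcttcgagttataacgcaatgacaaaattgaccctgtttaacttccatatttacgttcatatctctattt
PCK1 intron 2, chr4:17805611-17805910: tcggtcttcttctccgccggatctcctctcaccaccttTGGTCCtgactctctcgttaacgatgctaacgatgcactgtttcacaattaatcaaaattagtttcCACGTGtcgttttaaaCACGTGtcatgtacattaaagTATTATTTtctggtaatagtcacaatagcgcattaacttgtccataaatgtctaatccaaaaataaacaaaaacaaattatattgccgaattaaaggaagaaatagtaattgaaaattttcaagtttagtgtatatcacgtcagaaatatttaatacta
CPD intron 1, chr5:1705985-1706284: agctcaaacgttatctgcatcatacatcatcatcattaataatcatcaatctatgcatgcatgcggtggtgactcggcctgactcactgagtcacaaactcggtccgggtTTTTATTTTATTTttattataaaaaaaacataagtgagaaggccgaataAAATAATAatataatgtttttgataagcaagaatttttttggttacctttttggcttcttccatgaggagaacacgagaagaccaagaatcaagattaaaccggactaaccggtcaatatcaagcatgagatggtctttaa
ROT3 intron 1, chr4:17191154-17191453: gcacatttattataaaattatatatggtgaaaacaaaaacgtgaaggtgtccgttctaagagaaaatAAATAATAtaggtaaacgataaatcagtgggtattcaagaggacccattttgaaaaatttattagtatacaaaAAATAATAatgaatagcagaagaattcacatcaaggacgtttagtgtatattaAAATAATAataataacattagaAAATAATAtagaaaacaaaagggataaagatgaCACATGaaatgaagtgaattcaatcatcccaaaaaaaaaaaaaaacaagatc
UNE10 intron 4, chr4:18908-19207: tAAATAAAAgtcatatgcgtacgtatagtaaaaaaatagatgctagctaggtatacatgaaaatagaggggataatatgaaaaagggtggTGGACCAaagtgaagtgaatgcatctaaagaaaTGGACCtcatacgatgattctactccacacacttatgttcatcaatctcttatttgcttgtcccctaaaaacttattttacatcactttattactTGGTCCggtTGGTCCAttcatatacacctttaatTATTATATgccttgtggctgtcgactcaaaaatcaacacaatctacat
KNAT6 intron 3, chr1:8298329-8298628: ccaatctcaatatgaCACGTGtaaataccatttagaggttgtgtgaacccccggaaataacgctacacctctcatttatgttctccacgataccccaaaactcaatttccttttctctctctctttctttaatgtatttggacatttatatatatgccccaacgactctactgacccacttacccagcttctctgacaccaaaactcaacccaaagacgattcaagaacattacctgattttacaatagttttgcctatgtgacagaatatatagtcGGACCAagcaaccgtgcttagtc

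The first 3 windows belong to strong sites: SFP1 held no match, NRT1.1 had an overlapping pair of TCP-like matches next to its summit, and sks4 had 3 PIF-like matches in a cluster. ERD5, STP1 and PCK1 were the sites with the smallest p-values between time points. The PCK1 window held 2 copies of the G-box CACGTG, and 225 of its 300 bp lay in the intron. CPD and ROT3 encode cytochrome P450s of brassinosteroid synthesis, and their windows held 3 and 4 AT-rich matches. Only 191 bp of the CPD window were intronic, which is the whole of its intron 1. UNE10, which encodes a bHLH factor also called PIF8, had 6 TCP-like matches, among them overlapping ones, and KNAT6, a KNOTTED-like homeobox gene, had 1 TCP-like match and 1 CACGTG.

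Intron sites were found in similar numbers at all time points. The ZT4 lists held 772, 692 and 679 of them, the ZT9 lists 726, 659 and 635, and the ZT24 lists 797, 713 and 628. The group means were 714 ± 50.4, 673 ± 47.2 and 713 ± 84.5 (SD, n = 3 each), and the ranges overlapped. The difference was within the spread between replicates (exact permutation test over 280 partitions, two-sided, p = 0.675). Intron sites made up 3.50% ± 0.0739 (SD, n = 9) of the sites in a list, while the lists held from 17659 to 22316 sites each.

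Many intron sites recurred in every list. In all, 447 of 1086 (41.2%) were in all 9 lists and 185 (17%) in a single list, against 46.8% and 12.7% of all sites. Of the promoter-TSS sites 48.8% were in all 9 lists, and of the exon sites 38.8%. Lists of the same time point shared more intron sites than lists of different time points. The Jaccard index, shared sites over sites in either list, was 73.1% ± 1.75 (SD over 9 pairs) within and 69.5% ± 1.85 (SD over 27 pairs) between time points, a difference of 3.61 percentage points (one-sided exact permutation test with 280 partitions, p = 0.00357, the smallest possible). As a share of each list, the overlap was between 73.9% and 93.8% within and between 71.6% and 90.3% across time points. Peaks were called against an input that was not replicated, so lists of the same time point may have shared a control. Seedling age was also not the same at all time points. The part of input and age in the higher overlap within time points was not tested.

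**Figure D1:**
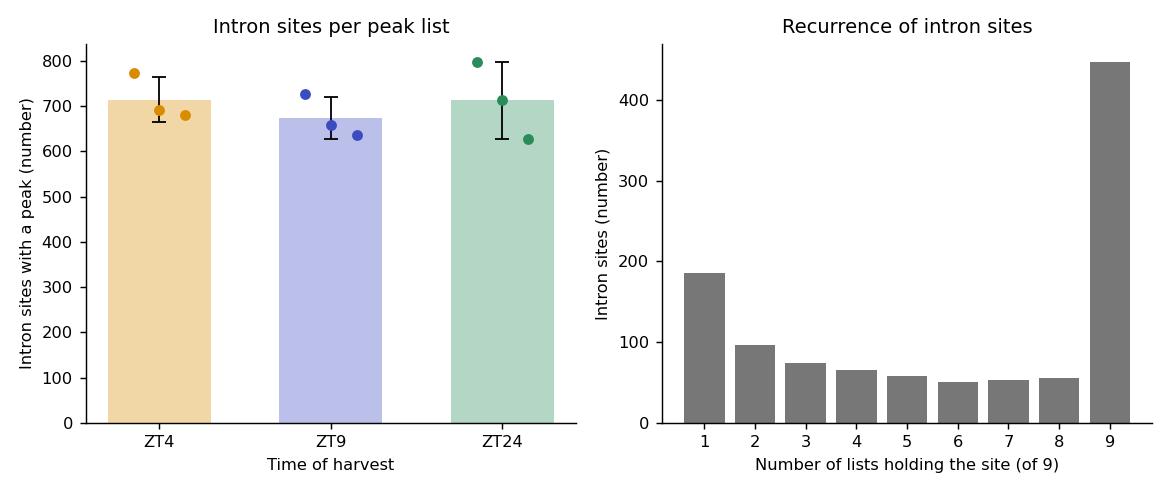
Number of intron sites with a peak in each of the 9 lists by time of harvest (left; points are lists, bars are means, error bars are SD, n = 3) and number of intron sites by how many lists held them (right; bars). The lists sit between 628 and 797 with overlapping time points, and 447 sites were in all 9 lists.

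Few intron sites were restricted to a time point. Only 9 sites (0.829%, against 0.700% of all sites) were in all 3 lists of 1 time point and in no other list, 6 of them at ZT4, 2 at ZT9 and 1 at ZT24. Among the 5 strongest was PAP1, a MYB factor that activates anthocyanin synthesis, which had peaks in intron 1 at ZT4 (fold enrichment 2.38, 2.46 and 2.73) and none elsewhere. AT1G60590, a pectin lyase-like protein, had a ZT4 site in its intron 1 (fold enrichment 2.92, 2.27 and 2.87). The other 3 were AT2G41620 (nucleoporin Nup93 family) and AT5G05840 at ZT9 and AT5G02890, an acyl-transferase family member, at ZT24. All of these were below the middle of their lists by fold enrichment, with mean percentiles from 27.6 to 42.9.

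Another 6 sites (0.552%, against 0.707% of all sites) were missing from all 3 lists of 1 time point and present in the other 6 lists. AT5G24580, a heavy metal transport protein, and AT5G64640, a pectin methylesterase-like protein, lacked a peak at ZT9. LACS1, a long-chain acyl-CoA synthetase of cuticular lipid synthesis, lacked one at ZT24, and UGT76C2, a cytokinin glucosyltransferase, and AT4G19420 lacked one at ZT4. These sites too were weak by fold enrichment, with mean percentiles from 18.9 to 35.7. How close they lay to the limit of peak calling was not tested.

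Intron sites were concentrated in long and early introns. Per Mb of intron left after the distance rules, the lists held 55.2 ± 4.58 intron sites, more than the 31.0 ± 3.10 exon sites per Mb of exon and fewer than the 173 ± 13.2 intergenic sites per Mb (SD, n = 9 lists; two-sided exact permutation test that flips the sign of each list's difference, p = 0.00391 for both, the smallest possible). The same order held in all 9 lists. First introns made up 24% of the eligible intron sequence and held 505 sites, or 46.5%. They had 105 ± 10.2 sites per Mb against 39.3 ± 2.93 in later introns, 2.68-fold more and higher in 9 of 9 lists (same exact test, p = 0.00391). The lists held largely the same sites, so this test measures how stable the difference was over lists.

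The length of the intron separated densities further. Introns under 300 bp, which were 72115 of 82511 eligible introns, held 13.2 ± 1.66 sites per Mb, and those of 300 to 999 bp held 108 ± 8.56. Introns of 1000 to 1999 bp held 265 ± 19.6 per Mb, and 31.1% of these 537 introns had a site. Among the 63 introns of 2000 bp or more 25 had a site, at 146 ± 29.0 per Mb (35 sites). The median length was 576 bp for introns with a site and 101 bp over all eligible introns. A long intron offers more sequence to hold a site, and the densities above are already per Mb.

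First introns were denser in both length classes. At 300 bp or more they held 150 ± 15 sites per Mb and later introns 114 ± 7.46. Under 300 bp the values were 28.5 ± 4.20 and 11.1 ± 1.5. By rank in the transcript, density was 107 ± 10.7 in intron 1, 96.5 ± 7.53 in intron 2, 68.0 ± 4.36 in intron 3 and 17.8 ± 1.52 from intron 4 on. Introns 1 and 2 overlapped in their ranges over lists (94.0 to 126 and 86.6 to 107), and the other steps did not overlap.

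Density by distance from the TSS differed between first and later introns. In first introns, density was 22.3 ± 4.36 sites per Mb from 101 to 500 bp downstream of the start, 103 ± 13.2 from 501 to 1000 bp and 238 ± 19.8 from 1001 to 2000 bp. Later introns in the 1001 to 2000 bp class held 56.0 ± 3.40 per Mb, so first and later introns at the same distance differed in every list. Intron length was not held equal in this comparison, and its part was not tested. By length, density was 13.2 per Mb in introns under 300 bp and 265 in those of 1000 to 1999 bp. Beyond 2000 bp the values were 219 ± 21.2 (23 sites) and 25.1 ± 2.28. The median intron site was 1226.5 bp from its host's TSS, with quartiles at 871 and 1791.75 bp. For 991 sites (91.3%) the host's TSS was also the nearest, and for 95 another gene's TSS was nearer.

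**Figure D2:**
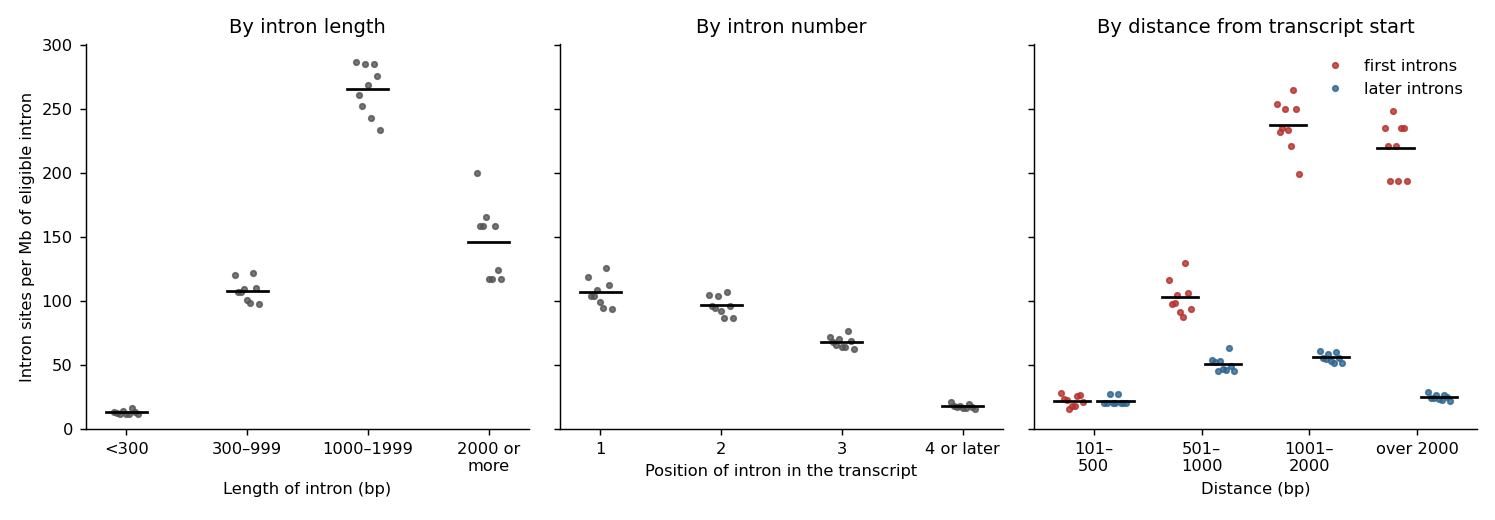
Intron sites per Mb of eligible intron by intron length, by intron number and by distance from the transcript start, the last split into first and later introns (points are the 9 lists, lines their means). Density peaks at 265 per Mb in introns of 1000 to 1999 bp, and first introns lie above later ones beyond 500 bp from the start.

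Most intron sites reached past the intron that held their centre. Their median width was 412 bp (142 to 6363), and 374 (34.4%) lay wholly within 1 intron. A median of 87.2% of a site's length was intronic, and the strongest summit lay in the same intron as the centre at 975 sites (89.8%). The sites within 1 intron were the weaker ones, with a median mean percentile of 21.5, and 20.9% of them were in all 9 lists. Whether strength goes with width or with place in the intron was not tested.

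The host gene often had a promoter site as well. Such a site was present at 76.9% of the hosts and at 66.2% of the 16398 other genes with an eligible intron. Of the 947 hosts 820 had 1 intron site, 116 had 2, 10 had 3 and 1 had 4. In 51 of the 127 genes with several sites, all were in the same intron. Neighbouring sites of a gene were a median 840 bp apart.

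AT1G31710, a copper amine oxidase gene, had the 4 sites: 3 in its 2637 bp intron 1 and 1 in intron 3. The 10 genes with 3 sites were TGA9 (a bZIP factor), IDD4 and IDD5 (zinc-finger factors), GA1 (the first enzyme of gibberellin synthesis), GAD (glutamate decarboxylase), HMA4 (a zinc-exporting ATPase), SULTR3;1 (a sulfate transporter), BCA4 (a carbonic anhydrase), scpl35 and AT5G11420. Their sites were unequal: IDD4 had a site in intron 3 with a mean percentile of 91.5 ± 2.86 in all 9 lists and 2 sites in intron 2 seen in 1 list each. TGA9 had 3 sites over introns 5, 9 and 11 with mean percentiles of 31.5, 38.2 and 96.3.

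The longest intron with a site, the 11602 bp intron 2 of AT2G34100, had 1 site in 2 ZT24 lists only. AT5G13250 (a RING finger protein; intron 3 of 5670 bp) and AT5G22090 (intron 1 of 5082 bp) had 2 sites each. The widest intron site, 6363 bp at AT1G21830, lay mostly outside its intron of 472 bp. The next widest, at WRI4 (3638 bp) and at LOG7 (3575 bp), a cytokinin-activating enzyme gene, were also centred in introns much shorter than the site.

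Intron sites were slightly weaker than promoter sites. Strength was read as the fold enrichment of the peak summit over its local background, as the authors' peak caller gave it, and as the percentile of that value among the sites of the same list, from 0 to 100. The median percentile of intron sites was 47.7 ± 1.38 and that of promoter-TSS sites 50.1 ± 0.275 (SD, n = 9 lists), a difference of -2.39 that was negative in all 9 lists (two-sided exact sign-flip test, p = 0.00391). With only peaks of -log10 q of at least 5 the difference was 0.0278 (same exact test, p = 0.988). Exon sites had a median of 45.2 ± 0.845 and intergenic sites 56.8 ± 0.954. In fold enrichment the medians were 2.75 ± 0.108 for intron and 2.81 ± 0.118 for promoter sites.

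Strong intron sites existed in every list but were a smaller share of the strongest binding. Intron sites were 3.12% ± 0.218 of the sites above percentile 90 (54 to 72 per list) and 1.5% ± 0.663 of those above percentile 99 (1 to 5 per list). A total of 17 intron sites were above percentile 90 in all 9 lists. The median over sites of the mean percentile was 29.9, and sites in few lists were the weak ones. It was 23.5 in introns under 300 bp and 35.3 in introns of 1000 bp or more, while first (29.8) and later introns (30.5) were alike in level. The peaks were about as wide as promoter peaks, with medians of 350 and 352 bp (difference -1.44 bp, exact sign-flip test, p = 0.633). With peaks of -log10 q of at least 5 and 10 intron peaks were wider, by 19.1 and 16.7 bp (same exact test, p = 0.00391 and 0.0117).

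The strongest site was in intron 2 of SFP1, which encodes a protein of the sugar transporter-like major facilitator family (AT5G27350; site chr5:9649526-9651140). Its fold enrichment was 11.1, 7.94 and 9.94 in the ZT4 lists, 10.7, 8.75 and 8.42 in the ZT9 lists and 10.2, 11.3 and 9.95 in the ZT24 lists, and it was the strongest intron site by mean percentile (99.8 ± 0.141, n = 9). The time points overlapped at this site. NRT1.1, the dual-affinity nitrate transporter and sensor (AT1G12110), had a site in intron 4 (chr1:4106491-4108467) with fold enrichment of 9.72, 6.90 and 8.88 at ZT4, 9.29, 8.22 and 7.29 at ZT9, then 8.97, 7.62 and 6.25 at ZT24. Here too the time points overlapped. The RNA-binding protein gene AT1G22330 had a site over intron 5 at a mean percentile of 99.2 ± 0.433 (fold enrichment 6.39 to 9.49).

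The other 7 of the 10 strongest sites had mean percentiles from 96.3 to 97.9. They were in sks4 (intron 2; a SKU5-like protein), AT5G20110 (intron 1; a dynein light chain), WRI4 (intron 4; an AP2 factor of cuticular wax synthesis), ABCG22 (intron 2; an ABC transporter that limits water loss), AT3G05165 (intron 3; sugar transporter-like), BRXL4 (intron 2; a BREVIS RADIX-like protein) and TGA9 (intron 11). None of the 10 was called different between time points, with adjusted p from 0.0792 to 0.626 (limma F test on ranks, Benjamini-Hochberg). The WRI4 site overlapped an annotated noncoding transcript.

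All motif classes were more frequent at intron summits than in unbound intron sequence. Over the lists, 35.8% ± 1.12 of the 300 bp summit windows held a TCP-like match, against 13.2% of 39260 unbound intron windows of the same length. The PIF-like share was 35.0% ± 0.682 against 19.0%, and the AT-rich share 53.4% ± 1.63 against 19.2% (SD, n = 9 lists). Each of these 3 differences (22.6, 16.0 and 34.2 percentage points) was positive in 9 of 9 lists (two-sided exact sign-flip test with Benjamini-Hochberg adjustment over 6 motif comparisons, adjusted p = 0.00469 each). The 9 lists held largely the same sites and shared 1 set of unbound windows, so the test measures stability over lists.

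GC content was lower at intron summits (31.5% ± 0.224) than in unbound windows (36.3%), a difference of -4.83 percentage points in 9 of 9 lists (exact test as before, p = 0.00391). Of 12.7 Mb of eligible intron, 8.05 Mb lay in introns under 300 bp, which are shorter than a window. Unbound windows centred there ran into exons, and exons have more GC. With windows wholly inside introns in both sets, the GC difference was -0.922 percentage points, and the motif differences were 24.5, 19.2 and 25.7 percentage points for the TCP-like, PIF-like and AT-rich motifs. The motif shares of unbound sequence are the background for the windows printed above, since a match by itself is common.

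Compared with promoter summits, intron summits carried similar motifs. The TCP-like share was 35.8% against 36.3% (difference -0.52 percentage points, adjusted p = 0.172), and it was 4.33 percentage points higher at intron summits with peaks of -log10 q of at least 10 (adjusted p = 0.00469). The PIF-like share was 35.0% against 33.9% (1.03 percentage points, higher in 9 of 9 lists, adjusted p = 0.00469), and with 100 bp windows the difference was -0.20 (adjusted p = 0.598). The AT-rich share was 53.4% against 51.3% (2.10 percentage points, 9 of 9 lists, adjusted p = 0.00469), and the difference was 0.499 with peaks of -log10 q of at least 10 (adjusted p = 0.117).

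Matches were denser near the summit than in the flanks. Within 40 bp of intron summits there were 5.73 TCP-like matches per 100 summits and 20 bp, against 1.73 at 300 to 500 bp away. The PIF-like values were 3.8 and 2.06, with the highest bin (4.28) at -70 bp, and the AT-rich values 8.11 and 2.60. In the windows printed above, the AT-rich match of ERD5 and the second AT-rich match of ROT3 had their centres at -3.5 and -5.5 bp from the summit, whereas those of UNE10 lay at -144.5 and 106.5 bp.

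**Figure D3:**
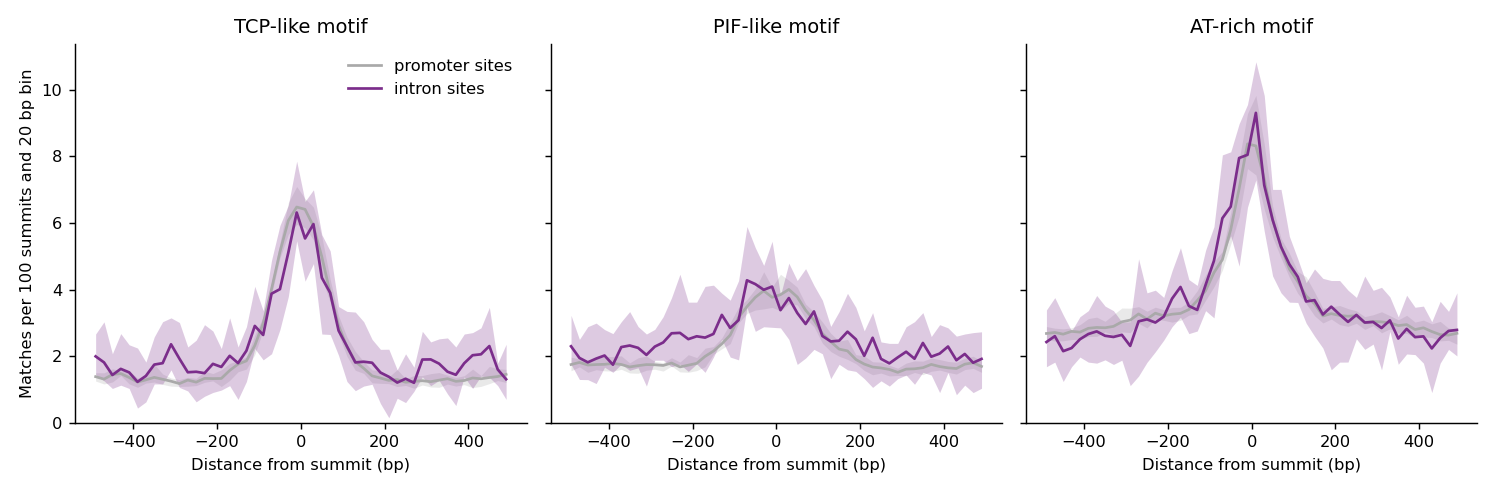
Matches to the TCP-like, PIF-like and AT-rich motifs per 100 summits and 20 bp bin by distance from the summit, for intron and promoter sites (lines are means over the 9 lists, bands the lowest and highest list). Within 40 bp of intron summits the means were 5.73, 3.8 and 8.11, above the flanks at 300 to 500 bp.

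Stronger intron sites held more motifs, a description across sites that share lists and base composition. At the strongest summit of each site, 361 sites (33.2%) had a TCP-like, 344 (31.7%) a PIF-like and 554 (51.0%) an AT-rich match. Sites with none of the 3 kinds numbered 217 (19.98%; 56.6% of unbound windows) and had a median mean percentile of 22.2. With 1, 2 and 3 kinds (525, 298 and 46 sites) the medians were 28.9, 38.5 and 59.2. From the weakest to the strongest quartile the TCP-like share was 25.7%, 28.4%, 35.8% and 43.0%, and the PIF-like share 24.3%, 28.4%, 33.6% and 40.4%. The AT-rich share (49.3%, 43.9%, 49.4% and 61.4%) was high only in the top quartile. The strongest site, SFP1, was an exception with no match of any kind.

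Fold enrichment differed between time points at some intron sites, while the F test on the ChIP pileup itself called none. The 447 sites in all 9 lists were tested among 13251 such sites genome-wide, on within-list ranks of fold enrichment turned into normal scores (limma moderated F test, Benjamini-Hochberg over all 13251). At adjusted p under 0.05, 79 intron sites (17.7%) were called, where the background over all sites was 14.6%. With ranks of the pileup, the number of ChIP fragments at the summit, limma called 0 intron sites (background 0.143%), although 80 had an unadjusted p under 0.05. Of its contrasts on pileup ranks, 1 passed at an intron site, Rap2.6L, higher at ZT24 than at ZT9 (background 0.083%). With ranks of -log10 p, 14 were called (background 1.85%). With 1 list left out, between 35 (without ZT24 replicate 2) and 52 sites were called, 35 to 48 of them among the 79, and every one of the 9 omissions moved the count by over 1.5 times.

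Both directions occurred in each contrast. From ZT4 to ZT9, 29 intron sites were higher (background 4.09%) and 15 lower (4.23%). From ZT4 to ZT24, 14 were higher (2.38%) and 18 lower (2.62%), and from ZT9 to ZT24, 22 were higher (4.63%) and 20 lower (4.35%). The background at the called sites, scaled for depth, went the opposite way to the fold enrichment in 42 of 44, 32 of 32 and 40 of 42 of them. The same held at 70.2%, 74.0% and 76.0% of the tested intron sites that were not called, fold enrichment being a ratio to that background. Pileup ranks went the same way as the fold enrichment in 38 of 44, 30 of 32 and 37 of 42, but by less, with median absolute differences of 0.46, 0.57 and 0.48 normal-score units against 1.26, 1.20 and 1.12. The local background comes from the input or the surrounding reads, and with 1 input per time point its spread was not replicated. Its part in the calls was not tested beyond these values.

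ERD5 (AT3G30775), the proline dehydrogenase gene, had the smallest adjusted p. At its intron 2 site (chr3:12450000-12450672) fold enrichment was 5.42, 3.98 and 5.20 at ZT4, 2.88, 2.69 and 2.62 at ZT9, then 6.21, 6.37 and 5.87 at ZT24. ZT9 lay below both other time points in every list. The percentiles were 87.2 ± 3.63, 49.2 ± 1.98 and 94.8 ± 0.581 (SD, n = 3 each; limma adjusted p = 0.00397). The pileup was 113, 83 and 83 at ZT4, 68, 68 and 48 at ZT9, then 112, 111 and 88 at ZT24, so ZT9 was lowest in pileup as well, with an adjusted p of 0.107 on pileup ranks, the highest over its alternatives (the lowest was 8.38e-05).

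STP1 (AT1G11260), a monosaccharide transporter of the plasma membrane, had the same pattern. Its intron 2 site (chr1:3778260-3778962) had fold enrichment of 6.85, 5.53 and 5.39 at ZT4, 3.06, 3.00 and 2.57 at ZT9, then 6.30, 5.20 and 6.05 at ZT24 (limma adjusted p = 0.00439; 0.000122 to 0.468 over the alternatives). All ZT9 values lay below all others. The mean background was 17.9, 31.6 and 19.0 fragments at ZT4, ZT9 and ZT24.

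PCK1 (AT4G37870), phosphoenolpyruvate carboxykinase of gluconeogenesis, had the opposite order at its intron 2 site (chr4:17805581-17806037). Fold enrichment was 2.60, 2.30 and 2.69 at ZT4, 4.58, 4.10 and 4.15 at ZT9, then 4.30, 3.85 and 3.74 at ZT24 (limma adjusted p = 0.00439; 0.000265 to 0.622 over the alternatives). ZT4 was below both other time points in every list. The mean pileup was 66.3, 71.0 and 76.7 fragments and the mean background 25.8 ± 2.89, 15.9 ± 1.06 and 18.5 ± 2.54 (SD, n = 3 each). At PCK1 the background differed more between ZT4 and the other time points than the pileup did.

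GRF4 (AT3G52910), a growth-regulating transcription factor, had a nearly level pileup from ZT4 to ZT9 at its intron 3 site. Fold enrichment was 3.27, 2.99 and 3.40 at ZT4, 1.97, 1.90 and 1.71 at ZT9, then 2.91, 2.86 and 2.23 at ZT24 (limma adjusted p = 0.00459; 0.00171 to 0.296 over the alternatives). The mean pileup was 55.7, 56.7 and 48.7 and the mean background 16.7, 30.2 and 17.6. From ZT4 to ZT9 the difference changed sign on pileup ranks, to 0.09 normal-score units.

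Rap2.6L (AT5G13330), an ERF-type stress factor, and IDD5 (AT2G02070) had their highest values at ZT24. At the intron 1 site of Rap2.6L fold enrichment was 2.44, 1.84 and 1.79 at ZT4, 2.58, 2.58 and 2.42 at ZT9, then 3.97, 3.49 and 3.22 at ZT24 (limma adjusted p = 0.00547; 0.000759 to 0.05 over the alternatives). At intron 2 of IDD5 it was 3.06, 2.18 and 2.50, then 3.01, 2.52 and 2.30, then 4.53, 3.77 and 3.75 (limma adjusted p = 0.0107; 0.00221 to 0.0628). At both genes ZT24 stood above all other lists. The mean pileup was also highest at ZT24, at 72.0 for Rap2.6L (50.7 at ZT4 and 48.0 at ZT9) and 68.7 for IDD5 (49.3 and 46.0). On pileup ranks, the contrast of ZT24 with ZT9 at Rap2.6L had an adjusted p of 0.0414 in limma.

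The remaining 4 of the 10 smallest p-values were in UMAMIT44, PIP2;5, AT4G12290 and AT2G01990. UMAMIT44, of an amino acid transporter family, was lowest at ZT9 (mean percentiles 70.8, 25.1 and 76.5; limma adjusted p = 0.00439). PIP2;5, an aquaporin, went down over the 3 time points (75.1, 47.2 and 20.4; adjusted p = 0.00465). AT4G12290, a copper amine oxidase, and AT2G01990, an XRI1-like protein, were lowest at ZT4 (20.3, 64.2 and 47.4; 11.7, 55.6 and 42.7; adjusted p = 0.00517 and 0.0100). On pileup ranks the limma adjusted p was 0.832 for UMAMIT44, 0.618 for PIP2;5, 0.079 for AT4G12290 and 0.191 for AT2G01990. All 10 sites stayed called with each list left out, with the replicate block, with ranks of -log10 p and with log2 fold enrichment. None was called by the F test on pileup ranks. The 10 were picked by their small p-values in the same lists, so their staying called is no independent check. Of all 79 called intron sites, 35 to 48 stayed called with a list left out and 52 with the replicate block. With ranks of -log10 p 14 of them stayed called, and with log2 fold enrichment 77. These refits all used the same local background.

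**Figure D4:**
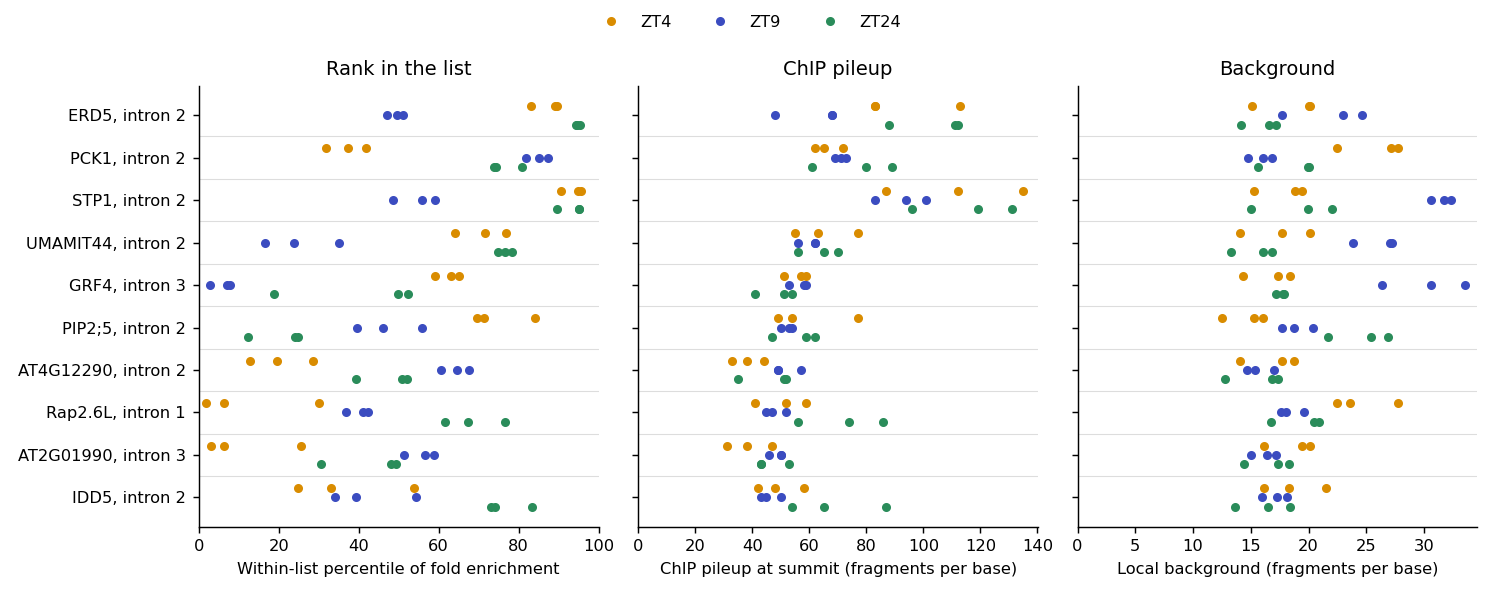
Within-list percentile of fold enrichment, ChIP pileup and local background at the summit for the 10 intron sites with the smallest adjusted p between time points (points are the 3 lists of each time point). At GRF4 the pileup means were 55.7, 56.7 and 48.7 while the background means were 16.7, 30.2 and 17.6.

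Over the 79 called sites no time point dominated. By the time point farthest from the other 2, ZT4 stood apart as higher at 7 and lower at 21 sites, ZT9 at 10 and 16, and ZT24 at 8 and 17. AT-rich matches were present at 67.1% of called and 55.7% of all tested intron sites, TCP-like ones at 41.8% and 41.4%, and PIF-like ones at 38.0% and 38.7%. Further called sites included the pair in AT1G31710, where fold enrichment in intron 1 was 5.23, 5.76 and 5.99 at ZT4, 3.40, 3.17 and 2.89 at ZT9, then 3.47, 3.31 and 2.39 at ZT24 (limma adjusted p = 0.0124), and HMA4 intron 1 (adjusted p = 0.0336).

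Host genes were not spread evenly over gene classes. Of the genes with an eligible intron in their representative transcript, 946 of 17344 (5.45%) were hosts. By words in the annotated product, 118 of 1136 transcription factors (10.4%) and 54 of 481 transporters (11.2%) were hosts, against 40 of 1066 kinases (3.75%) and 3 of 275 RNA-binding proteins (1.09%). Per Mb of their eligible introns the densities were 173 sites for transcription factors, 158 for transporters, 46.2 for kinases and 16.2 for RNA-binding proteins, against 85.2 over all genes. These shares are descriptions, and no test was made of them.

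In the list of 35 genes of hormone synthesis, inactivation, transport and response, 15 of the 34 with an eligible intron (44.1%) were hosts. Over all genes with an eligible intron the share was 5.45%. The 15 hosts held 18 sites, 13 of them in all 9 lists. All 15 were among the 25 genes of synthesis, inactivation and transport. Of the 9 response and signalling genes with an eligible intron 0 was a host, too few genes to set apart from 5.45%. The gene lists here and below were chosen with earlier results of these data known, so their host shares are descriptions only. CPD (AT5G05690) had a site over intron 1 (chr5:1705841-1706415) with fold enrichment of 6.02, 5.00 and 5.51 at ZT4, 5.22, 5.63 and 5.62 at ZT9, then 5.91, 5.02 and 4.34 at ZT24. ROT3 (AT4G36380) had one in intron 1 (chr4:17190762-17191908) with 6.75, 4.82 and 6.69, then 4.85, 4.76 and 4.49, then 6.05, 6.30 and 6.59. They were the strongest sites of the list, with mean percentiles of 91.4 ± 4.00 and 92.9 ± 3.33 (SD, n = 9). Both genes had a further, weaker site in all 9 lists, in intron 3 of CPD (32.7 ± 13.0) and intron 4 of ROT3 (42.2 ± 15.8). BR6OX2, which acts late in brassinosteroid synthesis, had a site in intron 2 (58.0 ± 17.3), BR6OX1 one in 7 lists, and BAS1, which inactivates brassinosteroids, one in 6 lists.

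Of the 7 gibberellin genes on the list 4 were hosts, each with a site in its first intron. GA2OX6 and GA2OX8, which inactivate gibberellins, had mean percentiles of 79.4 ± 5.78 and 76.6 ± 6.99, and GA20OX1, an enzyme of gibberellin synthesis, had a site in 5 lists. GA3OX1, which makes active gibberellins, was the called site of the list. Its fold enrichment was 3.00, 2.42 and 3.48 at ZT4, 4.11, 4.31 and 4.18 at ZT9, then 3.76, 2.68 and 2.18 at ZT24, with ZT9 above all others (limma adjusted p = 0.0453). The GA3OX1 call held in 2 of the 9 fits that left out a list, and its adjusted p over the alternatives was 0.00441 to 0.272 and 0.0736 with the replicate block.

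The auxin transporter genes held sites of middling strength. The influx carriers LAX2 (intron 4), AUX1 (intron 5) and LAX1 (introns 6 and 8) had sites in all 9 lists, with mean percentiles of 63.6, 57.5, 36.5 and 50.7. Among the efflux carriers, EIR1 (PIN2) had a site in all 9 lists (42.6) and PIN6 in 4. None of the tested ones was called.

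Of the loci the study names, 3 of the 17 with an eligible intron were hosts. They were CPD, BR6OX2 and UNE10. The intron 4 site of UNE10 had fold enrichment of 3.71, 3.43 and 4.12 at ZT4, 3.79, 4.00 and 3.43 at ZT9, then 3.29, 4.29 and 2.28 at ZT24, with overlapping time points. The PIF genes PIF4, PIL6 (PIF5) and PIF7 had eligible introns and no intron site. The study, which did not limit peaks to introns, counted these PIF genes as SOB3-bound at every time point. The study singled these loci out in its own account of SOB3, so they are no independent sample of genes.

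In the light signalling list, 4 of 25 genes were hosts. UNE10 and the blue-light receptor PHOT1 (intron 3; 53.7 ± 17.8) had sites in all 9 lists, the UV-B receptor UVR8 in 6 and PIL5 (PIF1) in 2. None of the 17 clock genes with an eligible intron was a host. Over all genes with an eligible intron the share of hosts was 5.45%. The eligible introns of the clock genes summed to 0.0119 Mb, and the part of this length was not tested.

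Homeobox genes of the KNOX, BELL and HD-ZIP III classes, which act in meristems and organ patterning, had 7 hosts among 20 genes and 12 sites, of which 4 were in all 9 lists. These 4 were KNAT6 intron 3 (45.0 ± 5.58), BLH4 intron 3 (47.6 ± 17.7), RPL intron 2 (53.2 ± 13.5) and BLH2 intron 1 (36.1 ± 21.1). The BLH2 site was called. Its fold enrichment was 3.30, 2.59 and 2.94 at ZT4, 2.75, 2.13 and 2.78 at ZT9, then 2.39, 1.98 and 1.93 at ZT24, and ZT4 and ZT9 overlapped (limma adjusted p = 0.0385). The BLH2 call held in 3 of the 9 fits without a list, and its adjusted p was 0.0192 to 0.355 over the alternatives.

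The remaining lists had 3 hosts among 37 MADS-box genes (8.11%) and 2 among 14 AHL genes (14.3%), against 5.45% over all genes. Of the MADS-box genes, AGL12 had a site in 8 lists and SVP and FLC, both repressors of flowering, 1 in a single ZT4 list each. Of the AHL genes, AHL1 had an intron 1 site in all 9 lists at percentiles from 0.839 to 58.3, and AT5G62260 one in a single ZT9 list. SOB3 itself had no eligible intron. Over all lists, there were 39 sites in 31 genes, 20 of them in all 9 lists and 2 of them called.

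**Figure D5:**
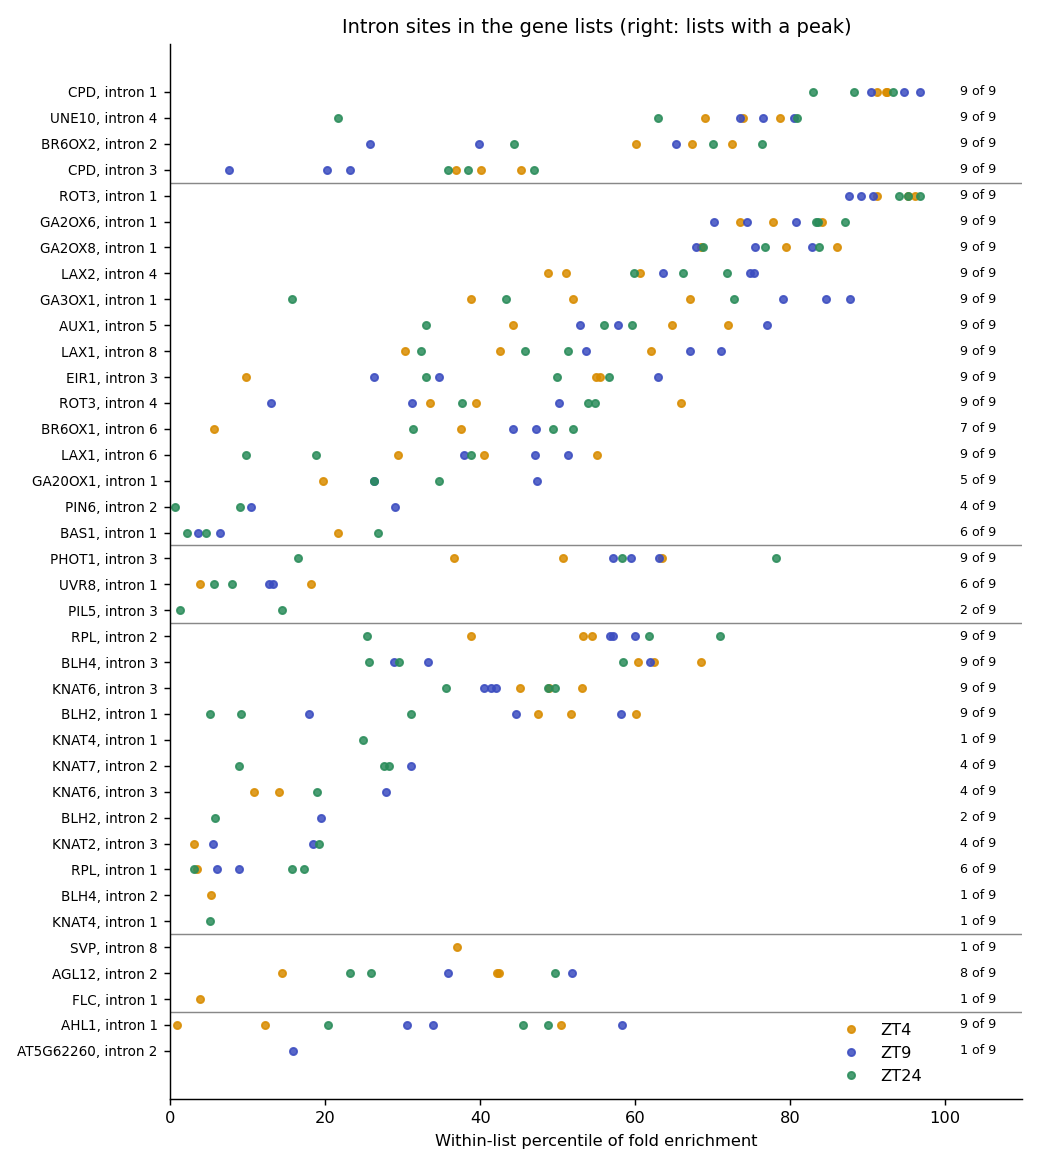
Within-list percentile of fold enrichment at the intron sites reported from the gene lists (points are lists, coloured by time of harvest; a list without a peak has no point). CPD intron 1 and ROT3 intron 1 sit highest, with mean percentiles of 91.4 and 92.9.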

How the data were processed

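SOB3-GFP was measured by ChIP-seq in 9 samples, with 1 input library per time point whose files were not used here. Per the labels and the study's methods, the authors used bcl2fastq, aligned reads to TAIR10 with Bowtie and retained those mapping to a single place, and ran MACS2 per replicate against input (versions, and which input served which list, are not given in the sources used here). Each deposited list gives, per peak, a fold enrichment (ratio) of the summit over its local background, a deposited −log10 p and −log10 q, and the authors' summit offset in bp (another value, used for position only). Keeping only unique reads leaves repeated sequence without peaks.

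Sites, motif windows and ranks were computed in Python 3.11.15 (numpy 2.4.6, pandas 2.3.3, scipy 1.17.1). Of several peaks of a list in a site the strongest was used. Pileup and background were solved from the deposited fold and −log10 p, within 0.001 for 100% of peaks, and the lowest background per list, 12.1 to 15.8 fragments per base, is the measure of depth. Sites in all 9 lists were tested between time points with limma 3.58.1 in R 4.3.3, moderated F test and Benjamini-Hochberg adjustment over all 13251 sites at 0.05, and tested on simulated data. Values per list were compared with exact permutation tests. In the tests between time points, p-values rest on the spread between ChIP replicates, and the input was not replicated. In the sign-flip tests, they measure how stable a difference was over lists that held largely the same sites.

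Introns came from the RefSeq annotation of TAIR10.1, whose nuclear chromosomes are those of TAIR10. Alternatives were other ranks, stricter −log10 q, other placements and windows, a replicate block and leaving out each list. The members and gene lists were chosen with earlier results of these data known. Sites named in the text are the 10 with the highest mean percentile in all 9 lists, the 10 called with the smallest adjusted p, those in the gene lists (1 of them is not reported here), the 5 strongest found at or missing from 1 time point alone, the 5 genes with most sites (with ties, 11), and the 3 longest introns and 3 widest sites. Among further sites named after their values were seen are those nearer to another gene or over noncoding transcripts.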

Additional observations from a re-analysis of the deposited data

Results flagged for a closer look

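Peaks outside chromosomes 1 to 5 entered no comparison. Over the 9 lists there were 223 peaks on the chloroplast and 73 on the mitochondrial sequence, which hold no intron sites under the rule used here. They stand out because no input or GFP-free sample with a peak list sets a level for them, and any peak exceeds a count of 0.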

How the results depend on the processing

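Of the settings tried on the 15 results that answer a comparison, 177 values kept their direction and side of the threshold. A further 13 were graded weaker, 1 stronger and 8 reversed. With peaks of -log10 q of at least 5 and 10 (exact tests), intron minus promoter percentile was 0.0278 (p = 0.988) and 1.76 (p = 0.0664), width 19.1 and 16.7 bp (p = 0.00391 and 0.0117), and TCP-like share 1.21 and 4.33 percentage points (adjusted p = 0.0234 and 0.00469), all reversed in sign, while the AT-rich share was 0.499 at the stricter limit (adjusted p = 0.117). With 100 bp windows the TCP-like difference from promoters was -2.13 (adjusted p = 0.00469) and the PIF-like one -0.204 (adjusted p = 0.598). The cause was not tested.

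Leaving out each list gave width differences from -5.25 to 1 bp (1 without ZT4 replicate 2), PIF-like differences from promoters of 0.630 to 1.46 percentage points (0.630, adjusted p = 0.0656, without ZT24 replicate 2), and 35 to 52 called intron sites, with fewer samples in each fit. The called sites were 14 with -log10 p ranks and 0 with pileup ranks. The GRF4 intron 3 difference from ZT4 to ZT9 reversed to 0.0913 with pileup ranks. With log2 fold enrichment 117 were called, 77 of them shared. Under -log10 q of at least 5 in all lists 62 were called, and 4 of the 10 named sites, the others not being tested there.

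Same-numbered replicates correlated between -0.0453 and 0.0577 in their deviations, so no pairing showed in these values. Counts of intron sites did fall with replicate number within every time point. In that order they were 772, 692 and 679 (ZT4), 726, 659 and 635 (ZT9), then 797, 713 and 628 (ZT24). Whether same-numbered samples share more than a number was not tested. With the replicate block 62 sites were called, 52 of them shared, the counts per list gave an exact p = 0.278 and the overlap difference p = 0.0278 (the smallest that 36 block partitions can give). Other placements gave 1275 intron sites (by starts and ends of coding genes), 1080 (by mean summit) and 1128 (merged at 100 bp overlap), and 794 and 501 sites were left at -log10 q of at least 5 and 10. Depth limits weak sites: a site missing from a list may lie just under the limit of peak calling.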

Other observations

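At 95 intron sites the TSS of a gene other than the host was nearest. The strongest was the TGA9 intron 11 site, 5310 bp from the TSS of TGA9 and 1073 bp from that of AT1G08315. The intron 3 site of PIP2E, an aquaporin gene, had a mean percentile of 94.1 ± 3.24 (SD, n = 9) and lay 1576 bp from AT2G39020. The intron 2 site of AT1G01570 (93.4 ± 4.36) lay 1704 bp from FRO2, the root ferric reductase gene. The intron 8 site of ANL2, a homeodomain factor of anthocyanin distribution (92.3 ± 2.73), lay 2895 bp from SK32 and 4238 bp from its own start.

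A noncoding transcript overlapped 8 intron sites, and 5 of these were in all 9 lists. They were WRI4, GASA4 (a gibberellin-regulated gene, mean percentile 69.5), DGR2 (55.9), AT2G01630 (55.4) and GAUT15 (31.7). No intron site overlapped an annotated pseudogene.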
